A study of Mus musculus with 16 samples.

Results

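The Pax family of the mouse comprises 9 genes, Pax1 to Pax9, each encoding a transcription factor that binds DNA through a paired domain. Peaks called with the antibody against total Jarid2 or with that against Jarid2-K116me2 were assigned to a Pax gene when they overlapped it or lay within 5 kb of it in the GENCODE annotation of NCBIM37 (mm9). By this rule the family had 16 peaks of the 4992 for Jarid2 and 18 of the 4502 for Jarid2-K116me2, and 8 of the 9 genes had at least 1 peak of each antibody. Pax4 had none. The 9 genes were taken from 22367 annotated protein-coding genes, which serve as the background below.

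Pax factors direct the formation of organs from restricted groups of cells in the embryo, and they are classed by the domains they carry and by sequence into the subgroups Pax1 and Pax9, Pax2, Pax5 and Pax8, Pax3 and Pax7, and Pax4 and Pax6. In embryonic stem cells (ESC), genes of this kind are textbook targets of Polycomb Repressive Complex 2 (PRC2), which trimethylates lysine 27 of histone H3 (H3K27me3) and holds developmental genes silent. Jarid2 is a partner of PRC2 that helps it bind chromatin, and PRC2 in turn methylates Jarid2 itself at a lysine, K116.

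The series holds 16 samples. Jarid2 and Jarid2-K116me2 were each precipitated from 1 sample of E14, a mouse ESC line grown with serum and LIF, so that no value for these antibodies has a replicate error. H3K27me3 was precipitated from 12 libraries in 6 groups of 2. They came from Jarid2 -/- ESC (KO), from the same ESC rescued with a BAC carrying Jarid2 (WT) and from those rescued with a BAC carrying Jarid2 K116A (K116A), in which this lysine is replaced by alanine, each as ESC in serum and LIF and as embryoid bodies (EB) formed by hanging drops during 8 days without LIF. All 3 lines thus carry the deletion of the endogenous gene, the BAC was integrated by a transposon, and the WT line is a rescue and not an unmodified ESC. The deposited files list peaks with a position and a score. The number of reads behind a peak is not in the lists. Per the study's supplement, the WT EB libraries had the fewest reads of all H3K27me3 libraries after removal of duplicates, and the scores are not adjusted for this. The H3K27me3 lists held between 1478 and 14125 peaks and covered between 2.31 and 55.0 Mb. The WT ESC replicate 1 stood apart with the shortest list, and the next shortest covered 8.03 Mb. In all 6 groups replicate 1 had fewer peaks than replicate 2. No value in the peak lists checks the genotype of the lines. Among 8 genes active in ESC, Esrrb had Jarid2 peaks and an H3K27me3 peak within 1 kb of a transcription start site (TSS) in all 12 libraries, and the other 7 had neither in ESC. None of 5 housekeeping genes had a Jarid2 peak, and 1 of them, Rpl13a, had an H3K27me3 peak within 1 kb of a TSS in 5 ESC libraries.

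Jarid2 covered an annotated TSS of 8 of the 9 Pax genes. Peaks of Jarid2 were found at 8 Pax genes against 18.1% of all protein-coding genes, peaks of Jarid2-K116me2 at the same 8 genes against 16.0%, and overlapping peaks of both at these 8 genes against 15.8%. At each of the 8 genes a peak of either antibody covered at least 1 annotated TSS. The Jarid2 peak of Pax8 covered 2 of its 7 TSSs and not the 5′-most one. The shares above are for any peak within 5 kb of the gene, and the share of all genes with a covered TSS was not computed. The family's peaks were wide. The median width was 4540 bp for Jarid2 against 1877 bp over its whole list, and 4322.5 bp for Jarid2-K116me2 against 1684 bp. More than 10 kb was spanned by 5 of the 16 for Jarid2 (31.2%, against 3.17% of the list) and by 4 of the 18 for Jarid2-K116me2 (22.2%, against 1.82%). The score of a peak, a p-value on a scale of minus 10 times its log10, piles up at 3100. This value was reached by 8 of the 16 for Jarid2 (against 14.4% of the list) and by 11 of the 18 for Jarid2-K116me2 (61.1%, against 20.1%). Since the score does not rank peaks at 3100, width and coverage were used to describe them. A gene with 3 or more peaks is rare in both lists (0.975% of genes for Jarid2 and 0.957% for Jarid2-K116me2), and 3 Pax genes had as many for Jarid2 and 4 for Jarid2-K116me2.

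**Figure D1:**
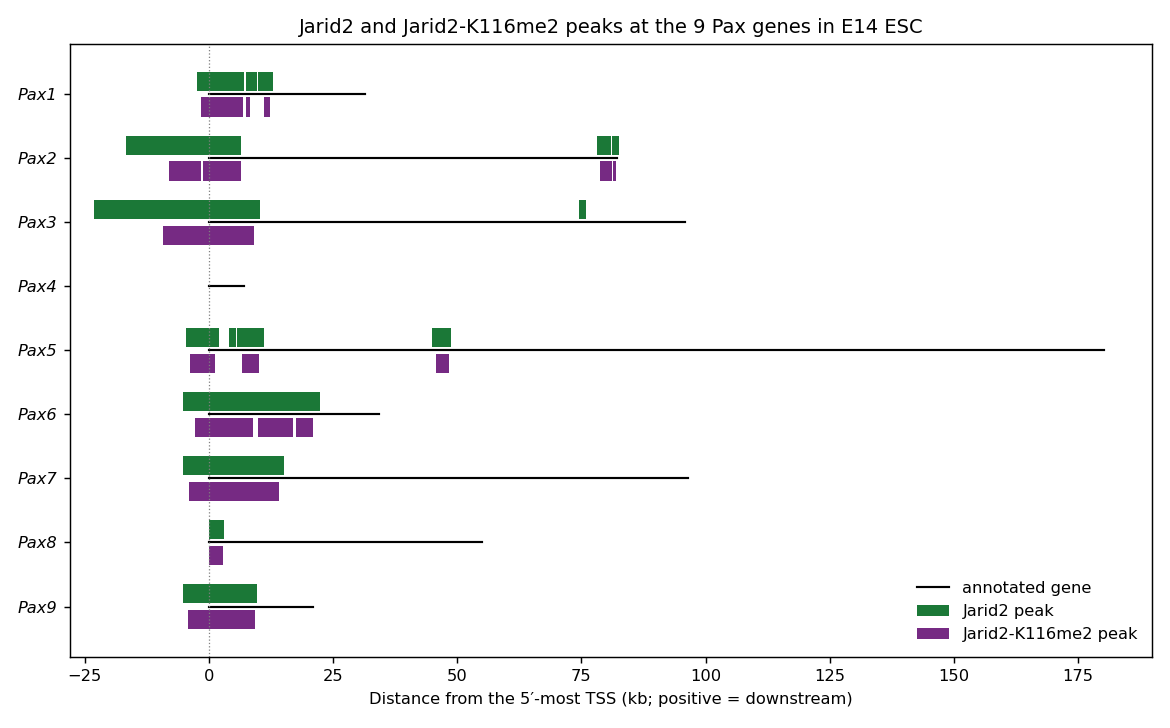
Peaks of Jarid2 (upper bars, green) and Jarid2-K116me2 (lower bars, purple) at the 9 Pax genes in E14 ESC, on an axis of distance in kb from the 5′-most TSS with the annotated gene as a black line. All 8 genes with peaks have both antibodies over an annotated TSS, and Pax4 has no bar.

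Pax1 and Pax9 are expressed in the sclerotome, which forms the vertebral column, and Pax9 is also required for teeth and pharyngeal organs. Pax1 (ENSMUSG00000037034.8, chr2:147187661-147219031, plus strand) had 3 Jarid2 peaks of 9514, 2190 and 2970 bp with scores of 3100, 460.34 and 927.21. The first covered all 3 TSSs and the others lay in its introns. The 3 Jarid2-K116me2 peaks at Pax1 lay inside these, with widths of 8465, 868 and 1306 bp and scores of 3100, 125.71 and 694.6. Pax9 (ENSMUSG00000001497.11, chr12:57792754-57813809, plus strand) had a single Jarid2 peak of 14916 bp and a single Jarid2-K116me2 peak of 13483 bp, both at 3100. They covered 47.4% and 43.4% of the gene and its flanks of 5 kb.

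Pax2, Pax5 and Pax8 act in the kidney and midbrain, in B cell commitment, and in the thyroid and kidney, respectively. Pax2 (ENSMUSG00000004231.7, chr19:44830539-44912758, plus strand) had a Jarid2 peak of 23134 bp over its 5 TSSs, the 16th widest of the list, and 2 weaker peaks near its 3′ end, with midpoints 75732 and 77994 bp from the nearest TSS and scores of 1133.66 and 275.25. Both distant peaks were also called with Jarid2-K116me2, at 983.22 and 154.79. Pax5 (ENSMUSG00000014030.9, chr4:44544017-44724318, minus strand) is the longest gene of the family. Jarid2 peaks of 6653 and 5387 bp covered 4 and 2 of its 7 TSSs, and both were at 3100 with either antibody. A further intronic peak scored 2208.51 for Jarid2 and 2096.24 for Jarid2-K116me2, and the weakest Jarid2 peak of the gene (138.21) had no Jarid2-K116me2 counterpart. Pax8 (ENSMUSG00000026976.8, chr2:24276071-24331119, minus strand) differed from the other 7 in the small extent of its peaks. It had 1 Jarid2 peak of 2925 bp that scored 2747.4, and it was the only gene of the 8 whose strongest Jarid2 peak stayed below 3100. Its Jarid2-K116me2 peak of 2963 bp scored 3100.

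Pax3 and Pax7 mark the progenitors of skeletal muscle, and Pax3 also acts in the neural crest. Pax3 (ENSMUSG00000004872.9, chr1:78097842-78193709, minus strand) had the widest Jarid2 peak of the family, 33379 bp and the 9th widest of the list. It covered the 3 TSSs and reached far upstream of the gene. The Jarid2-K116me2 peak over the same TSSs was 18361 bp wide, and the region under the Jarid2 peak held 4 Jarid2-K116me2 peaks of 25371 bp in all, of which 3 lay beyond the flank of 5 kb. A second, intronic Jarid2 peak of Pax3 scored 139.4 and had no Jarid2-K116me2 counterpart. Pax7 (ENSMUSG00000028736.6, chr4:139292977-139389445, minus strand) had 1 Jarid2 peak of 20455 bp and 1 Jarid2-K116me2 peak of 17999 bp, both at 3100 and both over its 2 TSSs.

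Pax6 directs the development of the eye, the central nervous system and the endocrine pancreas, and Pax4 acts in the insulin-producing cells of the pancreas. Pax6 (ENSMUSG00000027168.12, chr2:105509053-105543317, plus strand) had the highest coverage of the family. A single Jarid2 peak of 27514 bp, the 11th widest of the list, covered 28 of its 29 TSSs and 61.9% of the gene and its flanks. Jarid2-K116me2 covered 49.9%, in 4 peaks of 11574, 1141, 5945 and 3424 bp with scores of 3100, 274.75, 3100 and 1265.99. The antisense gene Pax6os1 overlaps these peaks, and a peak cannot be assigned to 1 of the 2. Pax4 (ENSMUSG00000029706.8, chr6:28392334-28399353, minus strand) is the shortest gene of the family. The nearest Jarid2 peak lay 43739 bp from it and the nearest Jarid2-K116me2 peak 44075 bp, with scores of 959.79 and 560.51.

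The sequence before the start of Pax4 also differed from that of the other members. CpG dinucleotides (the letters CG, found at the same places on both strands) were counted in the 250 bases before the 5′-most annotated TSS. Sequences of NCBIM37 are shown in the orientation of the gene and with each CpG in capitals. The first is Pax4, the gene without Jarid2, and the next Pax8, whose Jarid2 peak covered the fewest bases among the genes with Jarid2. Pax3 and Pax6, the genes with the widest Jarid2 peaks, follow. The windows are chr6:28399354-28399603 (minus strand), chr2:24331120-24331369 (minus), chr1:78193710-78193959 (minus) and chr2:105508803-105509052 (plus).
Pax4: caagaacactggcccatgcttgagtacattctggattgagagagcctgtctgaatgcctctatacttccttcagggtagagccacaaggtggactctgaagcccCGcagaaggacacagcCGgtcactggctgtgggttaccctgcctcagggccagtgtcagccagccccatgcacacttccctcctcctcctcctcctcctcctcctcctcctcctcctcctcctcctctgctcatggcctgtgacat
Pax8: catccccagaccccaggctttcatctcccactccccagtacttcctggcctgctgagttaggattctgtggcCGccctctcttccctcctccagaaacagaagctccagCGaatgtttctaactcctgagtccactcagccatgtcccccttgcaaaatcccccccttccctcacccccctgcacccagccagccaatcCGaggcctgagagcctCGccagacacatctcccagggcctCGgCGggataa
Pax3: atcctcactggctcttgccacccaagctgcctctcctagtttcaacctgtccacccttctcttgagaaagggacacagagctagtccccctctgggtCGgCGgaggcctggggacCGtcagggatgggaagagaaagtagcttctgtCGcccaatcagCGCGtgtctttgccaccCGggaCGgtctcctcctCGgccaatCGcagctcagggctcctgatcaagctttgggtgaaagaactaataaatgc
Pax6: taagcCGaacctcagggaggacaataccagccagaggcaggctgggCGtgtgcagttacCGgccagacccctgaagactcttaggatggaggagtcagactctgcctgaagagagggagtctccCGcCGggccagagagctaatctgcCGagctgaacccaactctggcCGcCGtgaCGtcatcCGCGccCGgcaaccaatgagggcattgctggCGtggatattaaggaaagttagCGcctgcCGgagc
Pax4 had 2 CpGs in this window, as many or more being present in 83.4% of protein-coding genes, and an observed to expected CpG ratio of 0.101. Pax8 had 6 CpGs and a ratio of 0.314, the next lowest of the family. Pax5 had 8, Pax3 10, Pax7 11, and Pax1, Pax2 and Pax6 15 each, and Pax9 the most with 21, a number reached by 19.0% of genes. The median over all genes was 8.0. It was 14 for the 4052 genes with a Jarid2 peak within 5 kb and 7.0 for the 18315 genes without, so that 4 of the 8 Pax genes with Jarid2 lay above the median of their class and 4 below. Over the whole peaks, the ratio of the family ranged from 0.203 to 0.627 against a median of 0.574 over all Jarid2 peaks, and 15 of the 16 peaks lay below this median. Below the lower quartile of all Jarid2 peaks (0.484) lay 11, among them the peaks at 3100 of Pax1, Pax2, Pax3, Pax6 and Pax7. The family's peaks were also wider than those of the list (median 4540 bp against 1877 bp), and the part of width in the ratio was not tested.

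To compare both forms of Jarid2, overlapping peaks were merged. The family's peaks formed 14 regions with both antibodies, and at least 1 bp was shared with the other antibody by 14 of its 16 peaks for Jarid2 and by all 18 for Jarid2-K116me2. Over the whole lists this held for 3947 of the 4992 peaks for Jarid2 and for 4442 of the 4502 for Jarid2-K116me2. In 13 of the 14 regions (92.9%) Jarid2-K116me2 peaks covered fewer bases than Jarid2 peaks, as they did in 92.4% of the 3896 regions of both lists. Pax8 was the exception, with a ratio of bases of 1.013. The smallest ratio was 0.396, at the second peak of Pax1. The highest scores were equal in 8 regions, where both stood at 3100. In the 5 regions where neither reached 3100, all of them secondary peaks of Pax1, Pax2 and Pax5, the score of Jarid2-K116me2 was the lower one, with a median log2 ratio of Jarid2-K116me2 over Jarid2 of -0.42 and a lowest value of -1.87. Over all 2992 regions below 3100 the median was 0.03, and Jarid2-K116me2 was the higher one in 1587. Scores are not normalised for depth, and with 1 sample per antibody these differences have no replicate check.

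H3K27me3 gave a further readout of the same genes, and the rule that assigned Jarid2 peaks to them did not use it. The members were chosen with earlier results of these data known. An H3K27me3 peak within 1 kb of a TSS was found in all 12 libraries at Pax1, Pax2, Pax5, Pax6, Pax7 and Pax9, and in all but WT ESC replicate 1 at Pax3. In ESC, replicates 1 and 2 had such a peak at 7 and 9 Pax genes in KO (8.24% and 19.1% of all genes), at 6 and 8 in WT (2.21% and 14.8%) and at 7 and 8 in K116A (10.0% and 16.3%). In EB the numbers were 7 and 8 in KO (14.4% and 18.1%), 9 and 8 in WT (11.6% and 11.9%) and 7 and 8 in K116A (13.3% and 16.6%). The genes that came and went were Pax4, with a peak in 5 of 12 libraries, and Pax8, with a peak in 4. Chromatin of all cells of a sample was pooled, so a mark on every cell and a mark on a share of the cells cannot be told apart.

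The extent of the mark was measured as the percent of each gene and its flanks of 5 kb covered by H3K27me3 peaks, and compared with limma over the 8074 genes covered in at least 2 of the 12 libraries, which include all 9 Pax genes (adjusted p by Benjamini-Hochberg, threshold 0.05). In this fit no Pax gene passed in any comparison. The background was 25.4% of genes called between EB and ESC, 0.0% between KO and WT in ESC (with 11 genes at an unadjusted p under 0.05), 0.0% between K116A and WT in ESC (with 31), 19.9% between KO and WT in EB and 1.44% between K116A and WT in EB. For the difference between lines in the change from ESC to EB it was 7.9% for KO and 0.272% for K116A. The replicates of a group are biological ones per the study's methods.

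**Figure D2:**
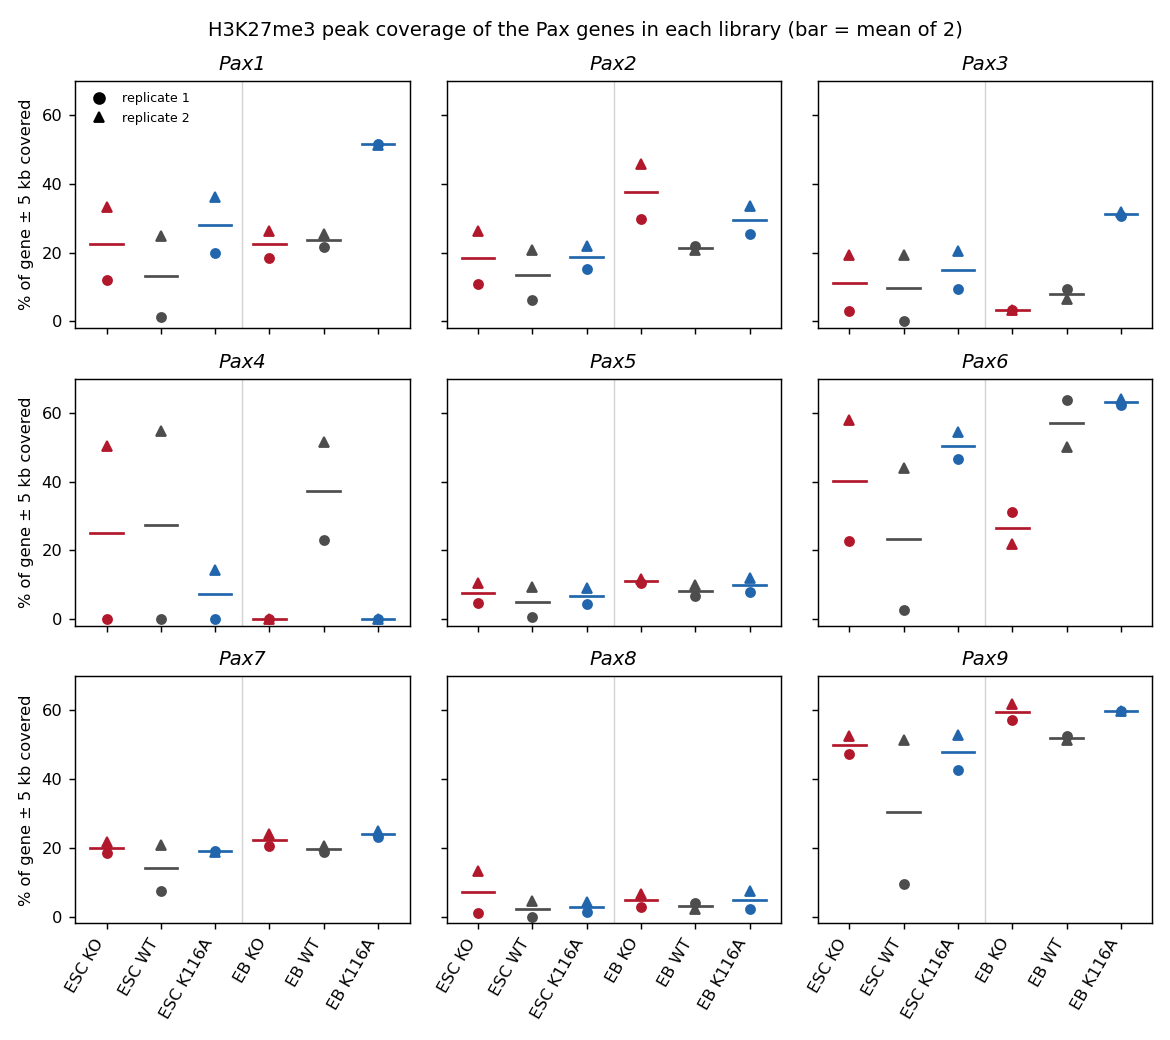
Percent of each Pax gene and its flanks of 5 kb covered by H3K27me3 peaks (vertical axis) in the 12 libraries, by stage and line (horizontal axis), with replicate 1 as circles, replicate 2 as triangles and the mean of both as a bar. Pax1 and Pax3 are highest in K116A EB, Pax6 in EB is lowest in KO, and Pax4 is at 0 in 7 libraries.

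Within the first subgroup, Pax1 was most extensively marked in K116A EB. Its coverage was 12% and 33.3% in KO ESC (replicates 1 and 2), 1.38% and 24.8% in WT ESC, 19.9% and 36.2% in K116A ESC, 18.6% and 26.2% in KO EB, 21.8% and 25.5% in WT EB, and 51.6% and 51.5% in K116A EB. Both K116A EB libraries thus lay above the other 10. The difference from WT EB was 27.9 ± 10.8 percentage points (SE, n = 2 libraries per group; limma adjusted p = 0.448). In K116A EB the peak over the start of Pax1 ran to 16.3 kb downstream of the TSS in both replicates and was 23956 and 27500 bp wide, against 9036 and 10812 bp for the widest peak in WT EB. Pax9 was covered by 9.33% in WT ESC replicate 1 and by 42.8% to 61.8% in the other 11 libraries. Its mean was 57.1% in EB and 42.7% in ESC, a difference of 14.3 ± 8.41 points (limma adjusted p = 0.229), or 7.32 ± 4.12 without WT ESC replicate 1. The 4 KO and K116A EB libraries of Pax9, at 57.1% to 61.8%, lay above all 6 ESC libraries, and the WT EB libraries at 52.6% and 51.3% did not.

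In the Pax2, Pax5 and Pax8 subgroup the percent covered was lower than at Pax9, in genes that are longer, and Pax2 came closest to a difference between stages. In length, Pax2 had the highest value of the family, 42.2 kb in KO EB replicate 2, the library with the longest list. The highest values were 33.9 kb at Pax3, 28.3 kb at Pax6, 26.4 kb at Pax7, 22.8 kb at Pax5 and 19.2 kb at Pax9. The mark at Pax2 was the longest of the family in the KO EB libraries only. In KO ESC replicate 1, for example, it spanned 9.97 kb against 19.5 kb at Pax7. Pax2 was covered by 10.8% and 26.2% in KO ESC, 6.33% and 20.8% in WT ESC and 15.4% and 22.1% in K116A ESC. In EB the values were 29.9% and 45.7% in KO, 21.9% and 20.7% in WT and 25.4% and 33.5% in K116A. The stages overlapped, and the difference of 12.6 ± 5.04 points had a limma adjusted p of 0.0993 (unadjusted p = 0.0361). KO EB had the highest values, 16.5 ± 8.74 points above WT EB (limma adjusted p = 0.254). This difference was 8.57 without KO EB replicate 2 and 1.99 when only the 5 kb on each side of the TSSs were measured. Pax5 ranged from 0.701% to 10.5% in ESC and from 6.59% to 12% in EB. Pax8 was the least marked of this subgroup, with 0% to 13.2% in ESC and 2.12% to 7.52% in EB. Its highest score in any library was 66.0, against 51.6 for Pax4 and 310.6 for Pax7.

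Pax3 and Pax7 had unlike patterns over the libraries. Pax7 was covered by 7.53% in WT ESC replicate 1 and by 18.4% to 24.8% in the other 11. Pax3 was covered by 3.05% and 19.2% in KO ESC, 0% and 19.3% in WT ESC, 9.35% and 20.4% in K116A ESC, 3.22% and 3.34% in KO EB, 9.37% and 6.51% in WT EB, and 30.7% and 32.0% in K116A EB. As for Pax1, both K116A EB libraries lay above the other 10, 23.4 ± 7.48 points above WT EB (limma adjusted p = 0.291, unadjusted p = 0.0134). When the 6 EB libraries alone were fitted, the SE was 1.83 and Pax3 passed (limma adjusted p = 0.0233), with 2.28% of genes called in that fit. With the same libraries the SE of K116A minus WT at Pax1 was 3.57 (limma adjusted p = 0.0623). That of KO minus WT at Pax6 was 6.21 (limma adjusted p = 0.0668). The single peak over the start of Pax3 was 37338 and 37836 bp wide in K116A EB with scores of 179.3 and 222.5. In WT EB the mark was broken into 4 peaks over the same stretch, the strongest within the flanks of 5 kb scoring 46.9 and 51.7. A block upstream of Pax3 (from -23.2 to -13.5 kb relative to the 5′-most TSS in KO ESC replicate 2), outside the flanks of 5 kb but under the Jarid2 peak of E14, was listed in every library in whole or in part. In KO EB this block scored 91.5 and 109.0, more than any peak within the flanks of 5 kb in the same libraries (at most 53.4 and 45.0). The same held in WT EB (85.3 and 86.8 against at most 46.9 and 51.7) and in ESC, for example 132.7 against 63.6 in KO ESC replicate 2. No peak covered the 5′-most TSS in KO EB or in WT EB replicate 2. In WT EB replicate 1 a peak ran over it from -0.992 to 5.263 kb.

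In the last subgroup, Pax6 had its lowest EB values in KO and Pax4 had H3K27me3 without Jarid2. Pax6 was covered by 22.6% and 58.0% in KO ESC, 2.68% and 44.0% in WT ESC and 46.5% and 54.4% in K116A ESC. In EB it was covered by 31.1% and 21.7% in KO, 63.9% and 50.1% in WT and 62.2% and 64.0% in K116A. Both KO EB libraries lay below the other 4 EB libraries, at a difference from WT of -30.6 ± 16.8 points (limma adjusted p = 0.272). The change from ESC to EB in KO minus that in WT was -47.6 ± 23.8 points (limma adjusted p = 0.357), or -27.0 ± 19.5 without WT ESC replicate 1. The peaks of KO EB were short pieces of at most 7268 and 6417 bp, against 28287 and 22194 bp in WT EB and 29724 and 30692 bp in K116A EB. The KO EB libraries had the most peaks of all (10164 and 14125), and for the median gene tested KO EB was 2.32 points above WT EB. The part of list length in the values at Pax6 was not tested.

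Pax4 was listed at 0 in 7 libraries, namely the replicates 1 of all 3 ESC lines and all 4 libraries of KO and K116A EB. It was covered by 50.3% in KO ESC replicate 2, 54.8% in WT ESC replicate 2, 14.4% in K116A ESC replicate 2, and 23.1% and 51.6% in the WT EB libraries. The strongest peak of Pax4 in each of these libraries scored 38.0 to 51.6. It lay above the median score of the library in WT ESC replicate 2 (51.6 against 49.19) and below it in the others. The difference of KO from WT in EB and that of K116A from WT were both -37.4 ± 20.2 points (limma adjusted p of 0.265 and 0.754). Both were -51.6 without WT EB replicate 1 and -23.1 without WT EB replicate 2. The window of Pax4 also reaches into the neighbouring gene Fscn3, and a peak there counts for both.

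**Figure D3:**
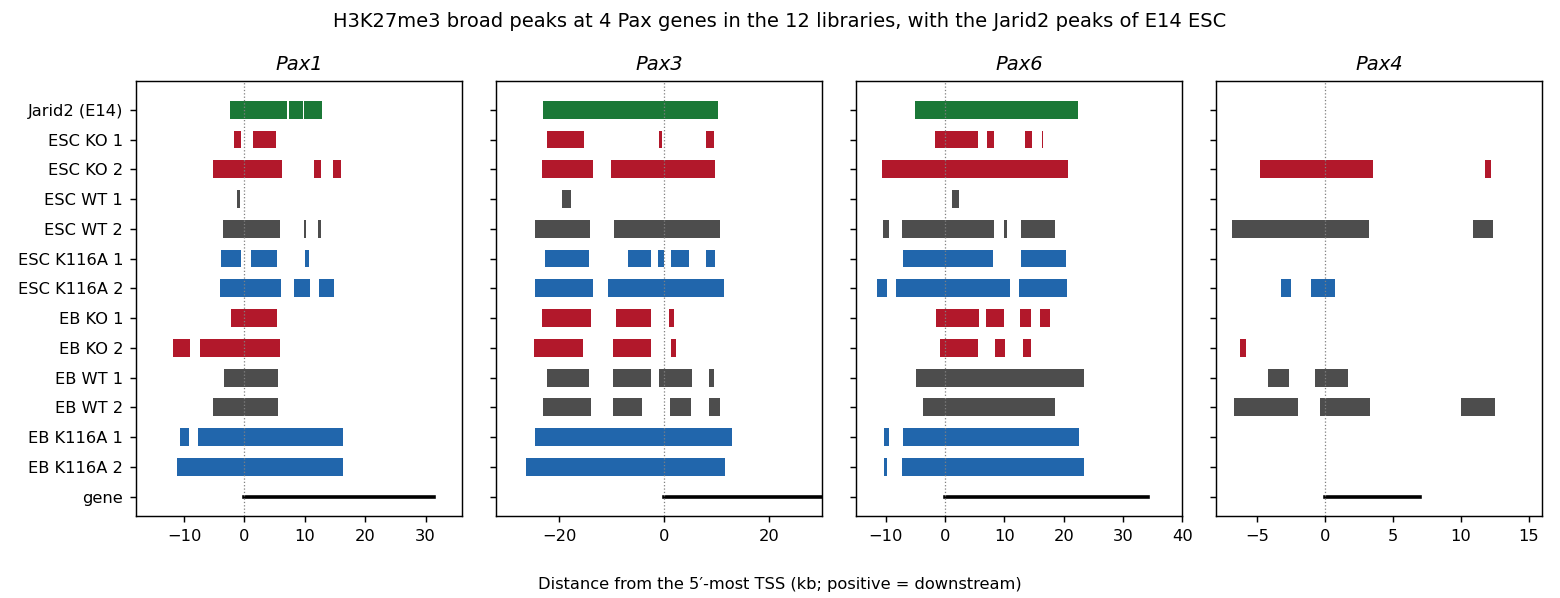
H3K27me3 peaks (bars) at Pax1, Pax3, Pax6 and Pax4 in the 12 libraries, with the E14 Jarid2 peaks in the top row and the annotated gene in the bottom row, on an axis of distance in kb from the 5′-most TSS. In all EB libraries 1 block lies over the start of Pax1, and it is widest in K116A. The mark over the start of Pax3 is 1 wide block in K116A EB. In KO EB that at Pax6 is in short pieces, and Pax4 has peaks over its start in 5 libraries only.

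The overlap of H3K27me3 with the Jarid2 peaks of E14 varied between the genes. In EB of K116A, H3K27me3 covered all Jarid2 bases of the windows of Pax1, Pax3, Pax6, Pax7 and Pax9 in both replicates. In KO EB it covered 20.5% and 21.3% of those of Pax3 and 50.3% and 35.0% of those of Pax6, while it covered 100.0% of those of Pax2 and Pax9 in both replicates. The reverse share also varied. At Pax6 at least 96.5% of the H3K27me3 bases lay in Jarid2 peaks in every library. It was lowest at Pax8, with 34.1% in KO ESC replicate 2, and at Pax2, with 36.5% in KO EB replicate 2. At Pax3 in K116A EB the share was 51.1% and 49.1%, and there the mark was also listed over an intronic stretch from 66.2 to 83.6 kb downstream of the TSS, which held 1 Jarid2 peak of E14. Shorter peaks within this stretch were listed in 5 of the 6 ESC libraries, and none in KO EB or WT EB. The E14 cells are another line than those used for H3K27me3, and the 2 sets of peaks were called with different versions of MACS.

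**Figure D4:**
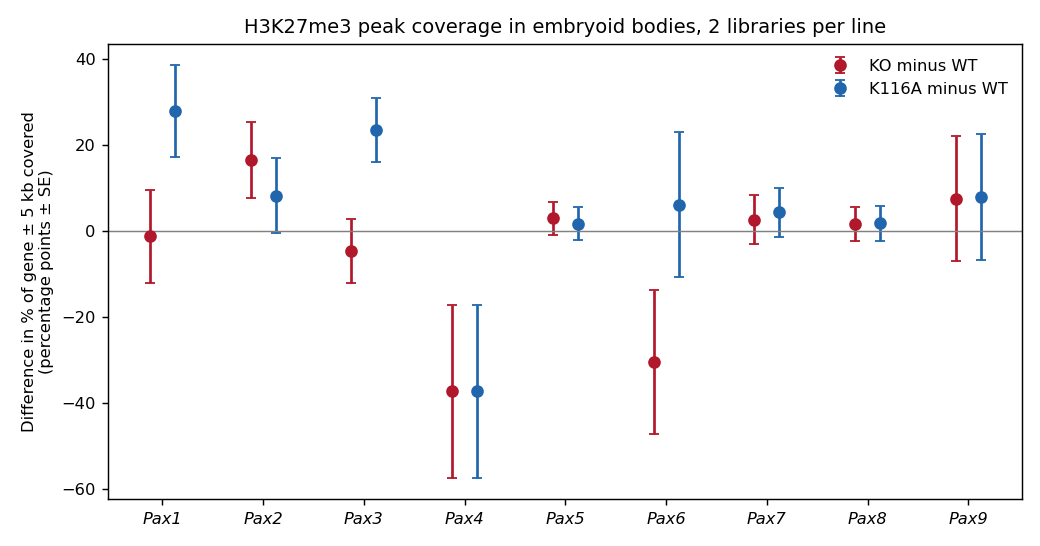
Differences in H3K27me3 coverage of the 9 Pax genes in EB, KO minus WT (red) and K116A minus WT (blue), in percentage points with the SE of the limma fit as error bars (2 libraries per line). The largest positive values are those of Pax1 and Pax3 in K116A, and the largest negative ones those of Pax4 in both lines and of Pax6 in KO, none of them past the threshold.

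Over the family, the median difference of the 9 genes was 4.23 points for EB minus ESC (1.71 over all genes tested). In EB it was 1.59 for KO minus WT (2.32) and 6.12 for K116A minus WT (0.457), and in ESC it was 4.92 for KO minus WT (0.651) and 5.19 for K116A minus WT (0.0596). The change from ESC to EB had a median of -6.12 in KO against WT (1.12) and of -0.176 in K116A against WT (0.0475). The comparisons with WT share their WT libraries, and those that use ESC include WT ESC replicate 1, the shortest list. The genes tested needed coverage in only 2 of the 12 libraries, and the points were not scaled to the coverage of a gene. An exact permutation test of 6 EB against 6 ESC libraries (two-sided, 924 arrangements, smallest p 0.00216) gave p = 0.0195 for Pax9, 0.0303 for Pax2, 0.0563 for Pax7 and 0.0823 for Pax5, and 0.193 to 0.946 for the other 5 genes. With the labels permuted within the replicate number (exact permutation test, 400 arrangements, smallest p 0.005), p was 0.02 for Pax9, 0.02 for Pax2, 0.035 for Pax7, 0.01 for Pax5 and 0.19 to 0.945 for the others. These are unadjusted tests of 9 genes, and the lines and replicates were not balanced for the number of peaks.

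Because the lists differed widely in length, the coverage was also computed with the 1478 strongest peaks of each library. Under this restriction Pax3 was covered by 16.8% and 15.6% in K116A EB and by 0% in the other 10 libraries. Pax1 was covered by 51.6% and 51.5% in K116A EB, 21.8% and 25.5% in WT EB and 0% in both KO EB libraries, and by at most 2.90% in ESC. Which peaks are kept depends on their rank in lists of unequal length. The Pax1 peaks of KO EB, which were dropped, had higher scores (75.5 and 91.3) than those of WT EB, which were kept (67.8 and 63.2). Pax6 was covered by 62.2% and 64.0% in K116A EB, 63.9% and 50.1% in WT EB and 0% in both KO EB libraries. There the dropped peaks of KO EB had the lower scores (at most 55.9 and 53.8, against 89.9 and 65.4 in WT EB). Pax4 was at 0% in all 12 libraries. These values are a description with no test, since Pax3 was kept through the K116A EB libraries only and most values of Pax1 are 0.

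Of the other settings, Pax2 passed for EB against ESC with the replicate number as a block (limma adjusted p = 0.0188; 38.4% of genes called) and without KO EB replicate 1 (limma adjusted p = 0.0434; 38.7% called). Pax9 passed for the same comparison without WT ESC replicate 2 (21.4 points; 25.0% called), and no conclusion is drawn from this call. In that fit WT ESC rested on replicate 1 alone, the shortest list, where Pax9 was covered by 9.33% against 51.4% in replicate 2. With replicates numbered 2 only, the difference at Pax9 was 5.28 points.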

How the data were processed

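ChIP-seq was carried out on 16 samples, of which 2 inputs have no peak list. The authors sequenced single ends of 100 bp, aligned these to mm9 using Bowtie2 2.1.0, removed PCR duplicates and called peaks per sample against input, with MACS 1.4.2 for Jarid2 and Jarid2-K116me2 and with MACS2 2.0.10 in broad mode for H3K27me3 (versions from the submitters' processing notes). The deposited lists give positions and a score, minus 10 times the log10 of the p-value for MACS, which is not normalised for depth. Read numbers are not in the lists and were not used, so no precision is given for a single score.

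Peaks were assigned to genes of the GENCODE NCBIM37 annotation, whose chromosome lengths hold all Jarid2 peaks, with a window of 5 kb, a window of 1 kb for TSSs and a minimum overlap of 1 bp. The planned H3K27me3 measure, the fold enrichment, was not in the files, and the percent of gene and flanks covered was used instead, as planned for that case. It was fitted with limma 3.58.1 (group means of 6 groups, eBayes with trend, R 4.3.3) for genes covered in at least 2 libraries, with Benjamini-Hochberg adjustment over all genes tested. Interval functions and the limma fit were tested on simulated data. All 9 members are described, with 8 ESC markers and 5 housekeeping genes. A further planned gene list and 1 of the genes most like the family are not reported here. Members and lists were chosen with earlier results of these data known. Alternatives were other windows, filters, equal numbers of peaks, each library left out and a replicate block. Coverage within 1 kb of TSSs, log2(percent + 1) and fits to 1 stage were added after seeing the data. Scripts used Python 3.11.15, pandas 2.3.3, numpy 2.4.6 and matplotlib 3.10.9.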

Additional observations from a re-analysis of the deposited data

How the results depend on the processing

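The 8 Pax genes with Jarid2 and with Jarid2-K116me2 were counted again at every distance to the gene body, at a common lowest score and with equal numbers of peaks, and the counts were 8 each time. With the peak midpoint within 1 kb of a TSS they were 3 for Jarid2, 5 for Jarid2-K116me2 and 3 for both. The share of all genes was not computed for this rule. The median score difference became -3.04 percentile points when ranks were used (-5.35 over all regions with both antibodies), the value of any region at 3100 in both lists. With equal numbers of H3K27me3 peaks, Pax genes with a peak at a TSS fell to 5 in replicate 2 of each ESC line. In replicate 1 they numbered 6 in KO, 6 in WT and 5 in K116A ESC. In EB they numbered 4 in both KO, 6 in both WT and 7 in both K116A libraries. The share of all genes was not computed under this restriction. The pseudocount alternatives could not be run without a fold enrichment, and for equal numbers the strongest peaks were taken by score.

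The number of genes called by limma depended on the setting. EB against ESC (2053 genes) gave 1200 with coverage in at least 6 libraries, 579 within 1 kb of TSSs, 872 with equal numbers of peaks, 0 with replicates numbered 2 only (1206 at an unadjusted p under 0.05) and 1173 to 3126 with 1 library left out. KO against WT in ESC (0) gave 6 with equal numbers and 0 to 155, and K116A against WT in ESC (0) gave 2 within 1 kb of TSSs, 6 with equal numbers, 1 on the log2 scale and 0 to 63. KO against WT in EB (1608) gave 385 with coverage in at least 6 libraries, 320 within 1 kb of TSSs, 397 with equal numbers, 756 with the EB libraries alone and 838 to 2460. K116A against WT in EB (100 higher, 16 lower) gave 12 with coverage in at least 6 libraries, 227 with equal numbers, 199 on the log2 scale, 184 with the EB libraries alone and 47 to 360. The change in KO against WT (638) gave 20 with coverage in at least 6 libraries, 148 within 1 kb of TSSs, 239 with equal numbers and 315 to 1830. That in K116A against WT (22) gave 13 without a filter, 0 with coverage in at least 6 libraries, 11 within 5 kb of TSSs, 43 within 1 kb, 143 with equal numbers, 70 on the log2 scale and 1 to 210. The libraries that set these extremes were K116A ESC replicate 1, KO EB replicate 1, KO ESC replicate 1, WT ESC replicates 1 and 2, WT EB replicate 1 and K116A EB replicate 1. The cause was not tested.

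With the replicate number as a block, 3104 genes were called between EB and ESC, and of the Pax genes Pax2 alone gained a call. The labels do not say that a number marks a batch, and per the study's methods the libraries with the higher number were of better quality. The deviations of same-numbered libraries correlated at 0.126 to 0.802 over the 15 pairs of groups (median 0.218), with 2 numbers only.

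At the members, K116A minus WT in EB kept its sign at Pax1 and Pax3 in every setting run, and KO minus WT in EB did so at Pax6. Both differences at Pax4 kept theirs except with equal numbers of peaks, where Pax4 was at 0 in all libraries, and Pax4 was not among the genes with coverage in at least 6 libraries. Since group means were fitted, a filter, the block or a left-out library of another group cannot move these differences. Only other windows, the log2 scale, equal numbers of peaks and left-out libraries of the compared groups could turn a sign. Small differences turned. EB minus ESC at Pax3 was -8.05 points within 1 kb of TSSs, -5.69 with replicates numbered 2 only and between -0.915 (without WT ESC replicate 1) and 5.53 with 1 library left out. KO minus WT in EB at Pax1 was 0.50 within 1 kb of TSSs and between -5.03 and 2.51 with 1 library left out. The change in KO against WT at Pax1 was between -22.5 and 0.876, that in K116A at Pax1 was -0.74 on the log2 scale, and that in K116A at Pax3 was -2.30 within 5 kb of TSSs.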

Other observations

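Among the genes whose H3K27me3 coverage followed the mean of the Pax genes most closely over the 12 libraries, after subtraction of each library's median, were Hcn4 (Pearson r = 0.978), Sgcb (0.977), Spata18 (0.967) and Wnt11 (0.964). The points share the length of the peak lists, and the values are a description. Replicates of a group correlated across genes at 0.657 in WT ESC and at 0.826 to 0.963 in the other groups.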
